A study of Homo sapiens with 6 samples.

Results

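The genes described here are the BAG co-chaperones BAG1, BAG2, BAG3, BAG4 and BAG5, the small heat shock proteins HSPB1 and CRYAB, the secreted chaperone clusterin (CLU) and the heat shock factors HSF1 and HSF2. They were picked by symbol, and all 10 were found among the 26485 genes of the table. The choice was made with the WFA versus DMSO result of these same libraries in view. The differences between the groups are therefore given for these genes as a description, without a test. RNA-seq was performed on THP1, a human acute monocytic leukemia cell line, with 3 libraries of cells exposed to withaferin A (WFA) and 3 of cells exposed to its solvent DMSO, all for 6 h. WFA is a steroidal lactone of the plant Withania somnifera. Its dose is 1 mM in the sample labels and 1 μM in the study's methods. The libraries stem from 3 independent experiments on 1 cell line, each with a DMSO and a WFA library of the same number.

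Total counts per library lay between 11006035 and 13872810. Expression is given as CPM, in which counts are brought to a common library size, here after scaling by TMM, a method that equalizes libraries on the bulk of their genes. Of the 10 monocytic markers examined, 10 passed the low count filter (about 10 counts in at least 3 libraries), and their sum was 2689 to 3285 CPM with DMSO and 2474 to 3285 CPM with WFA. Most of this sum was LYZ, at 1381 to 2090 CPM over all libraries. CD14, CD33 and CSF1R were lower in all WFA than in all DMSO libraries, with log2 fold changes of -1.22 (standard error 0.27), -0.85 (0.10) and -0.40 (0.09), and CD68 was higher in all of them, with 0.37 (0.10). Lymphoid markers summed to between 7.25 and 10.3 CPM with DMSO and between 8.17 and 12.7 CPM with WFA. Erythroid markers summed to at most 0.167 CPM and epithelial markers to at most 0.281 CPM. Of the 3 fibroblast markers only COL1A1 passed the filter, and it took their sum from 0.211 to 0.833 CPM with DMSO to 8.62 to 12.6 CPM with WFA, while COL1A2 had no count in any library. The part of these markers in the results was not tested.

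BAG proteins share a domain that binds the ATPase part of HSP70 and HSC70 and helps these chaperones to release ADP and their client. Their other domains set where the client goes, as in BAG1, which can dock to the proteasome, and BAG3, which links HSP70 to small heat shock proteins and to autophagy. Small heat shock proteins hold unfolding proteins without using ATP, and clusterin does so mainly outside the cell. HSF1 is the main activator of this system: upon proteotoxic stress it forms trimers that bind heat shock elements, which are inverted repeats of the unit GAA, and it activates chaperone genes without needing more HSF1 transcript. HSF2 is its close relative.

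By GENCODE 29 (GRCh38), BAG3 is located at chr10:119651370-119677819, BAG2 at chr6:57172326-57189833 and HSPB1 at chr7:76302544-76304295, all on the plus strand. BAG1 is located at chr9:33247820-33264720, BAG5 at chr14:103556544-103562831 and CRYAB at chr11:111908565-111923722, all on the minus strand. HSF2 is located at chr6:122399546-122433119, and BAG4, CLU and HSF1 are on chromosome 8. The counts cover whole genes, so isoforms of one gene are not told apart.

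With WFA, BAG3, CLU, HSPB1, CRYAB and BAG2 had more transcript than with DMSO, by between 2.32-fold and 28.2-fold for the 4 of them that could be fitted. BAG1, BAG4, HSF1 and HSF2 had overlapping values in both groups, and BAG5 was slightly lower. In 5 of the 10 genes every WFA library was above every DMSO library, and in 1 every WFA library was below. Among all 12854 genes that passed the low count filter, the same was seen for 29.6% and 28.5%, respectively. The 1 gene below was BAG5, and the number was 3 without DMSO replicate 2, 2 without DMSO replicate 3 or WFA replicate 1, and 3 when total counts replaced TMM. Nothing is read from these shares, since the genes were chosen on this contrast. Of the 10 genes, 9 passed the filter, and 4 of these 9 had every WFA library above every DMSO library. CRYAB, which is among the 5, did not pass. The median log2 fold change of the 9 that passed was 0.12, against 0.02 over all tested genes. In bulk RNA, a change in the number of cells that express a gene and a change in RNA per cell cannot be told apart.

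**Figure D1:**
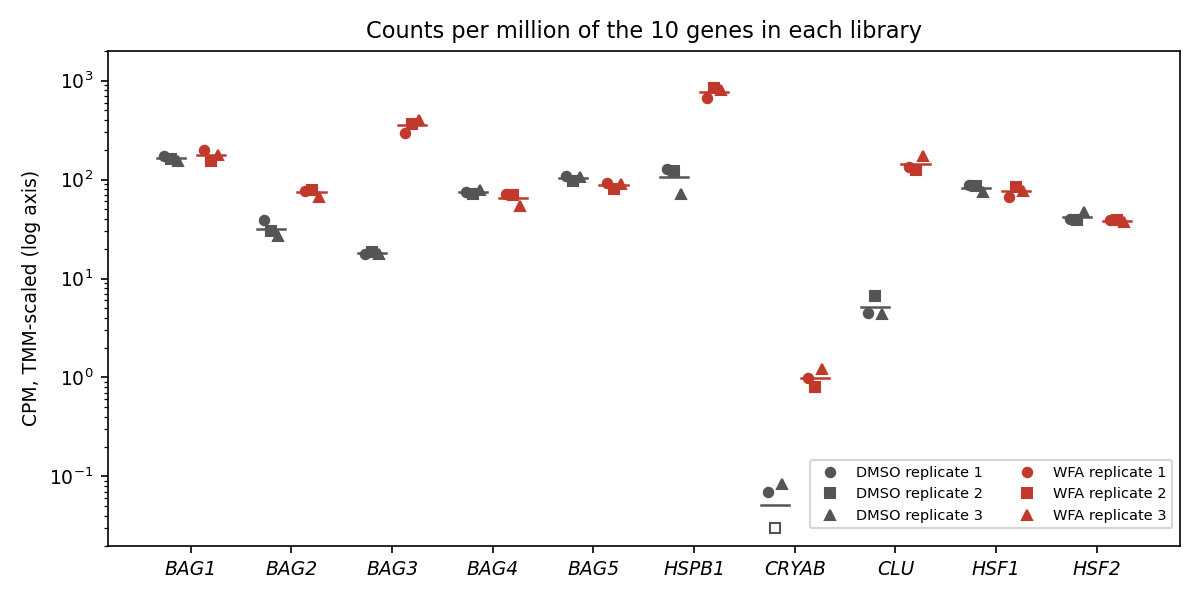
TMM-scaled CPM on a log axis for each gene in the 3 DMSO (grey) and 3 WFA (red) libraries. Symbols mark the replicate, short lines the group means, and the open square is a count of 0 drawn at the foot of the axis. BAG2, BAG3, HSPB1, CRYAB and CLU lie above all DMSO libraries in all WFA libraries.

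BAG3 is the stress-inducible member of the BAG family. It had 17.7, 18.4 and 17.7 CPM in DMSO replicates 1, 2 and 3, and 294, 364 and 398 CPM in the WFA replicates. The lowest WFA library was thus far above the highest DMSO library. The log2 fold change was 4.29 (standard error, SE, 0.12), or 19.6-fold, and it was 4.05, 4.31 and 4.49 within experiments 1, 2 and 3. It was the 32nd largest rise among the 12854 genes tested. The DMSO libraries differed by a coefficient of variation of 2.13%, which is less than the 6.56% that counting error alone gives at this depth, while the WFA libraries varied by 15.1%.

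BAG2, which binds HSC70 and holds back the ubiquitin ligase CHIP, had 38.6, 30.4 and 26.7 CPM with DMSO and 76.2, 79.1 and 67.0 CPM with WFA. The groups did not overlap, and DMSO replicate 1 was the highest of the controls. It was higher by 1.21 on the log2 scale (SE 0.12), with 0.98, 1.38 and 1.33 within the experiments. By GENCODE 29, 42.7% of the exon bases of BAG2 are shared with RAB23 on the opposite strand. The library kit named in the labels does not mark strand, so reads on these bases cannot be assigned with certainty. RAB23 had a log2 fold change of 0.06 (SE 0.14). For BAG4, BAG5 and HSF1 the bases shared with a protein-coding gene on the opposite strand made up 4.12%, 1.37% and 2.62%.

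The other BAG members differed little between the groups. BAG1 had 174, 162 and 154 CPM with DMSO and 198, 155 and 178 CPM with WFA. These values overlap, and the sign of the difference was not the same in all 3 experiments, with log2 differences of 0.19, -0.06 and 0.21. BAG4, also known as SODD for its binding to death domains of TNF receptors, had 74.3, 71.0 and 79.2 CPM with DMSO and 72.1, 69.6 and 54.3 CPM with WFA. Here WFA replicate 3 stood below the rest, and its experiment gave -0.54 on the log2 scale against -0.04 and -0.03 in the others. BAG5, which carries several BAG domains in a row, had 108, 96.4 and 107 CPM with DMSO and 92.1, 80.1 and 89.8 CPM with WFA. The highest WFA library lay just under the lowest DMSO library. The log2 fold change of BAG5 was -0.25 (SE 0.09), and the 3 experiments lay close together at -0.22, -0.27 and -0.25. For BAG1 and BAG4 it was 0.12 (SE 0.10) and -0.19 (SE 0.11).

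**Figure D2:**
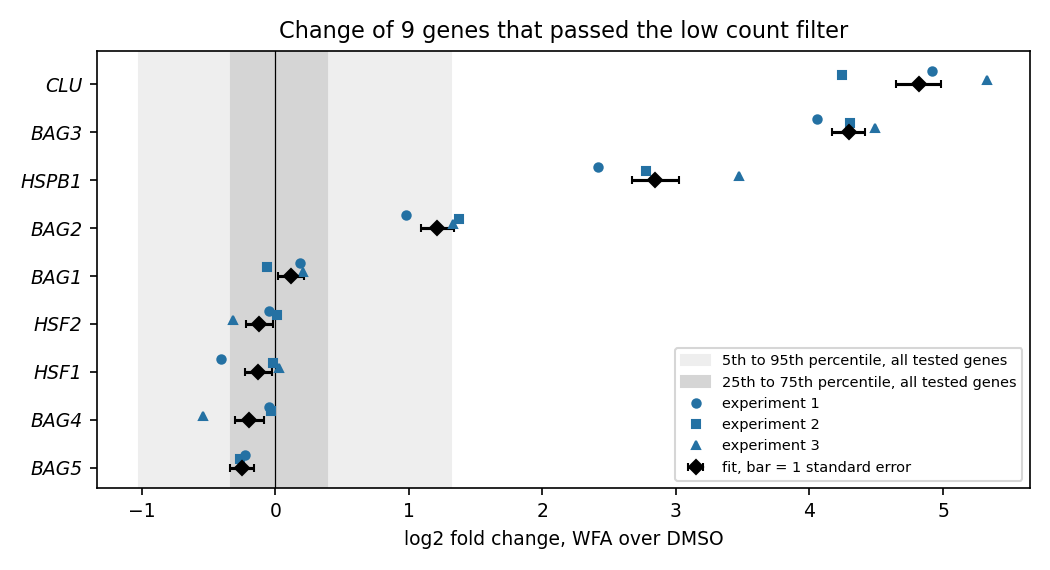
Log2 fold change of WFA over DMSO for the 9 genes that passed the low count filter. Diamonds with bars are the fit across all 6 libraries with 1 standard error, blue symbols are the 3 experiments, and the grey bands span the 25th to 75th and the 5th to 95th percentile of all tested genes (-0.33 to 0.38 and -1.02 to 1.32). CLU, BAG3 and HSPB1 lie beyond the outer band, and BAG1, BAG4, BAG5, HSF1 and HSF2 lie within the inner one.

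HSPB1, also known as HSP27, had the highest CPM of the 10 genes with WFA. It had 127, 123 and 71.6 CPM with DMSO and 674, 846 and 795 CPM with WFA. DMSO replicate 3 was well below the other controls, and all WFA libraries were above all controls. The log2 fold change was 2.85 (SE 0.17), or 7.19-fold, and it spread from 2.41 and 2.78 in experiments 1 and 2 to 3.47 in experiment 3. The controls varied by 28.8%, the most among the 9 genes that passed the filter, against a median of 9.04% over all tested genes.

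CRYAB, the alpha-crystallin B chain, was close to absent from the DMSO libraries. It had 1, 0 and 1 counts in the DMSO libraries and 12, 10 and 13 counts in the WFA libraries. The controls were thus at the floor of 3 counts per library, and the mean of the WFA libraries was at least 4.31-fold higher. With a mean of 0.998 CPM with WFA, CRYAB stayed far below every other gene of this group. Its exons share bases with HSPB2 on the opposite strand, but HSPB2 reached no more than 1 count.

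CLU had 4.43, 6.63 and 4.33 CPM with DMSO and 134, 126 and 174 CPM with WFA. The groups were far apart, and the difference was the largest fitted change of the group. It was higher by 28.2-fold, or 4.82 on the log2 scale (SE 0.17), with 4.92, 4.24 and 5.33 within the experiments. This was the 21st largest rise among all tested genes. The experiments spread by an SD of 0.55, similar to the 0.54 of HSPB1 and more than the 0.22 of BAG3.

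HSF1 had 87.7, 85.1 and 75.2 CPM with DMSO and 66.3, 84.3 and 76.9 CPM with WFA. These values overlap, with WFA replicate 1 the lowest. The log2 fold change was -0.13 (SE 0.10), and by experiment it was -0.40, -0.01 and 0.03. HSF2 had 40.1, 38.7 and 46.7 CPM with DMSO and 38.9, 39.0 and 37.5 CPM with WFA, and the groups overlapped here too. Its log2 fold change was -0.12 (SE 0.10), with -0.04, 0.01 and -0.32 within the experiments.

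Levels of different genes were compared per length, as CPM per kb of the longest GENCODE 29 transcript. With DMSO the order ran from HSPB1 at 73.6 ± 21.2 (SD, n = 3) and BAG1 at 43.2 ± 2.66 through HSF1, BAG5, BAG4 and HSF2 to BAG3 at 6.99 ± 0.149. Below them came BAG2 at 4.80 ± 0.920, CLU at 1.67 ± 0.422 and CRYAB at 0.0458 ± 0.0401. HSF1 and BAG5 had overlapping ranges, as had BAG4 and HSF2, so these neighbours did not differ beyond their spread. With WFA, HSPB1 was again highest at 530 ± 60.8, and BAG3 moved from rank 7 to rank 2 at 137 ± 20.7. CLU at 47.0 ± 8.46 came next to BAG1 at 46.8 ± 5.70, with overlapping ranges. BAG4 and HSF2 overlapped here as well, at 14.7 ± 2.16 and 14.6 ± 0.313. The length of the transcript that is actually used is not known. With the median transcript length in place of the longest, BAG1 ranked above HSPB1 with DMSO and BAG3 ranked 3 with WFA.

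**Figure D3:**
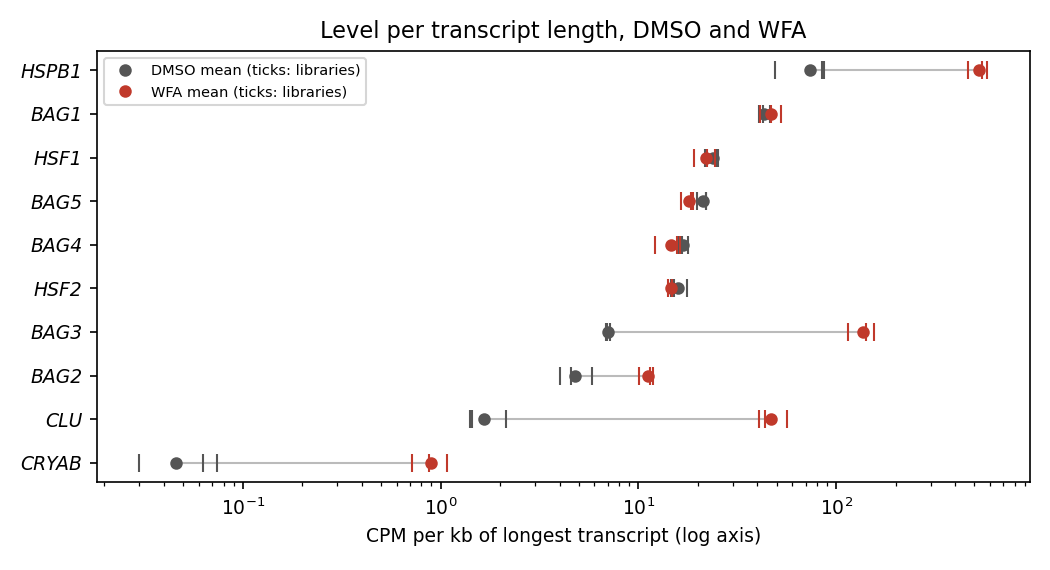
CPM per kb of the longest transcript on a log axis, with group means as dots, libraries as ticks and a line joining DMSO (grey) to WFA (red). A count of 0 is drawn at the left of the CRYAB row. BAG3 goes from rank 7 to rank 2, while HSPB1 is highest in both groups.

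The balance of BAG3 and BAG1, which hand clients of the same HSP70 to autophagy and to the proteasome, was given as a ratio within each library. On the log2 scale of CPM per kb, the BAG3 to BAG1 ratio was -2.74, -2.58 and -2.56 in the DMSO libraries and 1.13, 1.79 and 1.72 in the WFA libraries. It was thus below 0 in all controls and above 0 in all treated libraries. In linear terms, BAG3 was at 0.150 to 0.169 of BAG1 with DMSO and at 2.18 to 3.45 times BAG1 with WFA. The change of 4.17 log2 units does not depend on transcript length, but the side of 1 on which the treated ratio falls does, since with median lengths it was 0.787 to 1.24. The HSF1 to HSF2 ratio was 0.74, 0.75 and 0.30 with DMSO and 0.38, 0.73 and 0.65 with WFA on the same scale, and its mean moved by -0.01, less than the spread between libraries. Its level depends on length too. In linear terms it was 1.235 to 1.685 with DMSO, but 5.63 to 7.69 with median lengths and 0.821 to 1.12 with all exon bases of each gene.

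**Figure D4:**
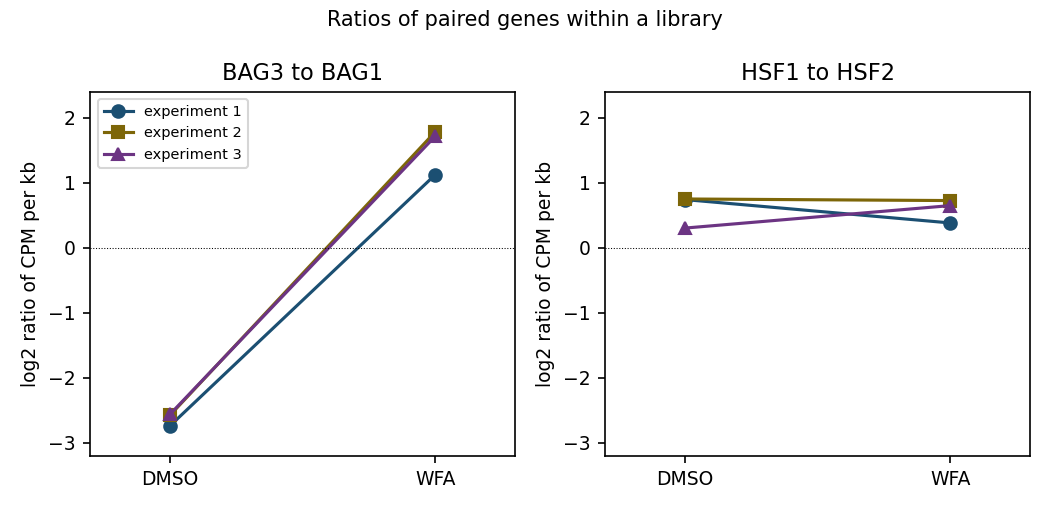
Log2 ratio of CPM per kb of BAG3 to BAG1 (left) and of HSF1 to HSF2 (right), with a line for each of the 3 experiments from DMSO to WFA. The left ratio rises by 4.17 on average, and the right one moves by -0.01.

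Promoter sequences were examined for the letters of heat shock elements. RefSeq promoters (GRCh38.p14, from 250 bases before to 50 after the start) were found for 6 of the 10 genes, BAG1, BAG2, BAG3, BAG5, HSPB1 and HSF2. The bases upstream of both the RefSeq and the GENCODE start are shown 5′ to 3′ on the plus strand for the 3 of them that were higher with WFA. They come from chr6:57172076-57172325 for BAG2, chr10:119651130-119651369 for BAG3 and chr7:76302423-76302543 for HSPB1. Capitals mark matches to a heat shock element of 2 units, or of 3 units with 1 mismatch.
BAG2: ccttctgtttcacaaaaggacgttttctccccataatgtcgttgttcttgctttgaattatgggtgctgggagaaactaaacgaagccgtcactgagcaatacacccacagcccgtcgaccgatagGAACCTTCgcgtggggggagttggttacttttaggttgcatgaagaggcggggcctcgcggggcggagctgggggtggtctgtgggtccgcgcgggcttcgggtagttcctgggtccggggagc
BAG3: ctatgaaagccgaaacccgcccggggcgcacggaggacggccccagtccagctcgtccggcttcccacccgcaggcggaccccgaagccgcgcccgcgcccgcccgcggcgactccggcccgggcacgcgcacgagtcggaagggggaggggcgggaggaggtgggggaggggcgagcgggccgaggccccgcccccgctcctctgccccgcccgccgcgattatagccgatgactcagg
HSPB1: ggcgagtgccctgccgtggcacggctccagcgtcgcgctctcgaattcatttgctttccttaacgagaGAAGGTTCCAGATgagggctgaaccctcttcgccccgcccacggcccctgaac

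The letters searched for 2 units were GAANNTTC and TTCNNGAA, each of which is its own reverse complement, so that both strands are covered. For 3 units, GAANNTTC had to be followed by NNGAA, or TTCNNGAA by NNTTC, which are each other's reverse complement, so that each match of 3 units also holds matches of 2. No promoter of these 6 genes held the 3-unit form, which 0.608% of the 27305 genes in the promoter table hold. The 2-unit form was found in BAG2, 124 bases upstream of the RefSeq start, and in HSPB1, 182 bases upstream of it, against 16.2% of all genes. With 1 mismatch allowed, HSPB1 alone of the 6 matched the 3-unit form at the same place, against 7.60% of all genes. The BAG3 window, in which 77.9% of the bases shown are G or C, held neither form, which says only that these letters are not in this window. Of the other letters searched on both strands, TGACNNNGC was found in HSPB1 alone (16.1% of all genes). Both of its matches there lie downstream of the RefSeq start, outside the bases shown. CCAAT (39.7% of all genes) and TATAAA (14%) were found in HSF2 alone. On the list of HSF target genes described below, 9 of the 24 genes with a promoter held the 3-unit form and 17 the 2-unit form. Over 2-fold changes were called for 8.11% of tested genes upward and 5.2% downward. Among those of them with a promoter, the 3-unit form was found in 15 of 744 higher genes (2.02%) and in 0 of 460 lower genes. Among all 9602 tested genes with a promoter the share was 0.51%. Every tested HSF target gene was over 2-fold higher, so those with a promoter are among the 744. Up to 9 of the 15 can thus come from that list, so the 2.02% is not a share apart from it. These shares were not tested against each other.

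A list of 17 further genes held other members of these families and HSBP1, HSBP1L1 and HSF2BP, which are named for binding to HSFs. It was tested because its genes are not among the 10, though it too was written with earlier results known. Of the 17 genes, 6 passed the low count filter, with a median log2 fold change of 0.34. By edgeR's quasi-likelihood test 2 of them were higher with WFA and 0 lower at an adjusted p-value under 0.05. Over all tested genes 50.5% passed, with 25.8% higher and 24.7% lower. Neither of the 2 is itself a BAG, small heat shock protein or HSF gene. They were HSBP1, which encodes a small protein that binds HSF1 trimers and dampens their activity, and its relative HSBP1L1. HSBP1 rose from 119 ± 4.17 to 157 ± 4.67 CPM (SD, n = 3 each), or by 0.40 on the log2 scale (SE 0.08, edgeR adjusted p = 0.000717). HSBP1L1 rose with a log2 fold change of 1.45 (SE 0.40, edgeR adjusted p = 0.00751), but from 7, 12 and 3 counts to 19, 16 and 20. In DMSO replicates 1 and 3 it was under 10 counts, so it passed the filter only through its WFA libraries. A fall from this level could hardly have entered the test, so its rise is no support for a direction of this list. HSF4, at 35 to 55 counts per library, had a log2 fold change of 0.53 (SE 0.24, edgeR adjusted p = 0.0771). It passed with the replicate block (edgeR adjusted p = 0.024) and without WFA replicate 2 (edgeR adjusted p = 0.0317), and over its 11 alternatives the adjusted p-value reached 0.261. HSPB7 and HSPB11, small heat shock protein genes by name, and HSF2BP had log2 fold changes of 0.27, -0.02 and -0.41 and did not pass. No decrease in this list reached an unadjusted p-value under 0.05 either. BAG6, the remaining member of the BAG family, is listed at 0 in all 6 libraries. HSPB8, the usual small heat shock protein partner of BAG3, reached no more than 1 count, and CRYAA and HSPB3 had none.

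Targets of the heat shock factors were examined with a list of 26 chaperone, co-chaperone and ubiquitin genes, of which 24 passed the filter. The list was written from general knowledge, but with earlier results of these data known, so its count is not independent evidence of its direction. All 24 were higher with WFA by edgeR's test and 0 were lower, with none lower at an unadjusted p-value under 0.05. Of all tested genes, 25.8% were higher and 24.7% lower. The log2 fold changes of this list had a median of 2.23, against 0.02 over all tested genes, and ranged from 1.02 to 8.63. DNAJA4, a co-chaperone of HSP70, rose from 106 ± 14.4 to 2014 ± 59.9 CPM (SD, n = 3 each), or by 4.25 on the log2 scale (SE 0.12, edgeR adjusted p = 4.33e-12). SERPINH1, the collagen chaperone HSP47, rose from 90.9 ± 18.6 to 1341 ± 59.3 CPM, or by 3.88 on the log2 scale (SE 0.14, edgeR adjusted p = 3.23e-11). HSPA6, an HSP70 that is nearly silent without stress, had 16, 8 and 21 counts with DMSO and 3828, 5267 and 7003 with WFA (log2 fold change 8.63, SE 0.32, edgeR adjusted p = 5.77e-11). As DMSO replicate 2 was under 10 counts, HSPA6 too passed the filter only through its WFA libraries. DNAJB4 rose with a log2 fold change of 3.52 (SE 0.13, edgeR adjusted p = 5.77e-11). For HSPA1A and HSPA1B, which are almost the same in sequence, the division of reads is uncertain.

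Of 15 genes that modify HSF1 or help to control it, 14 passed the filter, with 3 higher and 2 lower with WFA and a median log2 fold change of 0.03. Over all tested genes 50.5% passed, with 25.8% higher and 24.7% lower, and the median was 0.02. Scaled by total counts, 2 genes of the list were higher and 4 lower. The medians were then -0.055 for the list and -0.06 for all tested genes. PLK1, a mitotic kinase that phosphorylates HSF1, fell by 0.75 on the log2 scale (SE 0.14, edgeR adjusted p = 0.000495). EP300, which acetylates HSF1, rose with a log2 fold change of 0.45 (SE 0.09, edgeR adjusted p = 0.000877), as did HSBP1 above, which is on both lists. The third rise was GSK3B, named after its value was seen, with 0.28 (SE 0.08, edgeR adjusted p = 0.0104), but without DMSO replicate 2 it no longer passed (0.24, edgeR adjusted p = 0.0638), nor when scaled by total counts (0.20, edgeR adjusted p = 0.0637). Over its 11 alternatives the adjusted p-value of GSK3B ran from 0.00147 to 0.0638. AKT1, also named afterwards, passed only with the replicate block (log2 fold change 0.20, edgeR adjusted p = 0.0239, against 0.0543 without it and up to 0.263 in the alternatives).

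Of 16 genes in the table that were listed from general knowledge as partners of BAG proteins, 15 passed the filter. Binding itself was not tested. By edgeR's test 6 were higher, 1 was lower and 8 did not pass, beside 50.5% of all tested genes that passed in either direction, and the median log2 fold change was 0.18. SQSTM1, the autophagy receptor p62, rose from 115 ± 14.1 to 572 ± 86.7 CPM (SD, n = 3 each), or by 2.32 on the log2 scale (SE 0.12, edgeR adjusted p = 2.01e-09). MAP1LC3B, which marks autophagosomes, rose with a log2 fold change of 1.37 (SE 0.10, edgeR adjusted p = 7.06e-08), and DNAJB6, also on the list of HSF targets, with 2.27 (SE 0.10, edgeR adjusted p = 4.17e-10). The decrease was that of BCL2, the survival factor that gave the BAG family its name, from 190 ± 11.7 to 81.9 ± 2.45 CPM (log2 fold change -1.21, SE 0.08, edgeR adjusted p = 2.96e-08). The other rises, named after their values were seen, were HSPA8, which is also on the list of HSF targets, TNFRSF1A, the receptor that BAG4 binds, and YAP1, with log2 fold changes of 1.56, 0.58 and 1.41. STUB1, which encodes CHIP, had a log2 fold change of -0.03 and did not pass, and was named afterwards too.

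Of 4 receptors for clusterin, 3 passed the filter, and 1 was higher and 2 lower with WFA, with a median log2 fold change of -0.44. Over all tested genes 25.8% were higher and 24.7% lower, with a median of 0.02. LRP8 rose from 142 ± 23.1 to 228 ± 40.5 CPM (SD, n = 3 each), or by 0.68 on the log2 scale (SE 0.13, edgeR adjusted p = 0.00047). VLDLR fell by 0.44 on the log2 scale (SE 0.09, edgeR adjusted p = 0.00106) and TREM2 by 0.51 (SE 0.13, edgeR adjusted p = 0.00481).

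**Figure D5:**
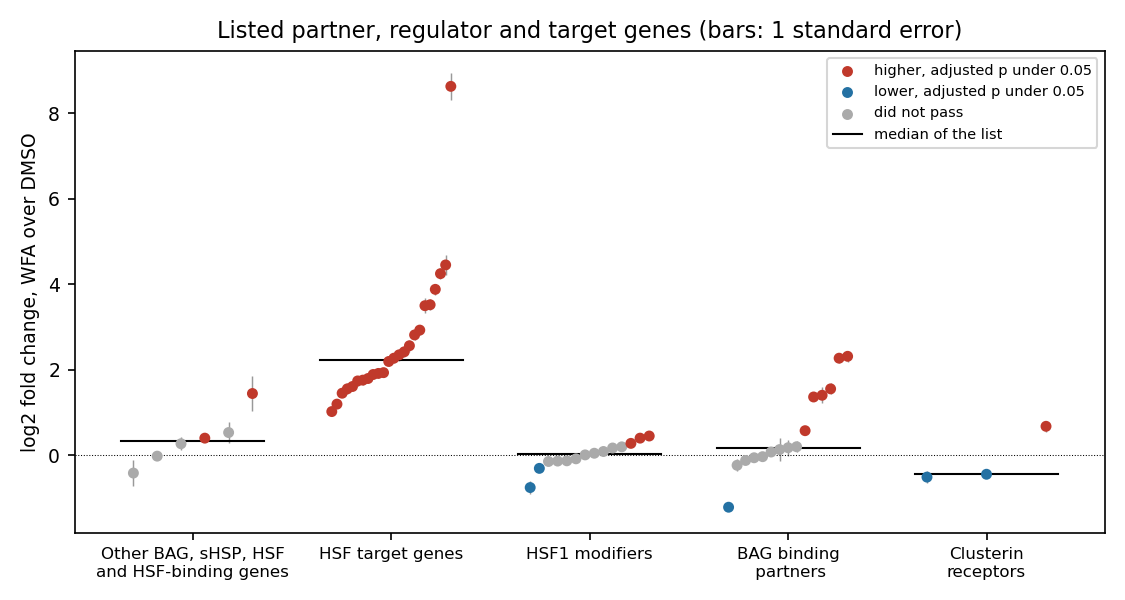
Log2 fold change of WFA over DMSO for each tested gene of the 5 lists, with bars of 1 standard error, a black line at the median of the list and colour for genes past an edgeR adjusted p-value of 0.05. The 24 HSF target genes all lie above 1, whereas the 14 HSF1 modifiers lie between -0.75 and 0.45.

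The genes whose values over the 6 libraries were most like those of the 3 largest fitted changes were also named. The measure was the root mean square difference of log2 CPM, taken after adding 0.1 to each CPM and centred on the DMSO mean. It was smallest for DNAJA4 beside BAG3, at 0.18, for FKBP4 beside HSPB1, at 0.17, and for OSGIN1 beside CLU, at 0.24. FKBP4 encodes a co-chaperone of HSP90, and like HSPB1 it was lowest in DMSO replicate 3, at 0.29 below the DMSO mean against 0.53 for HSPB1. The next were TUBBP5 and ALOXE3 for BAG3, GEMIN8P4 and TRIM16 for HSPB1, and THEGL and P4HA2 for CLU, with differences from 0.18 to 0.31. With 2 groups of libraries, such likeness mostly reflects a similar size of change on this scale, which can differ from the fitted change. In ALOXE3 and THEGL no read was counted with DMSO, and TUBBP5 had a DMSO mean of 0.05 CPM. These 3 genes passed the filter only through their WFA libraries, and the added 0.1 largely sets their likeness. Fitted log2 fold changes were 7.94 (SE 0.83) for ALOXE3 and 5.41 (SE 0.52) for TUBBP5, against 4.29 for BAG3. For THEGL the fit gave 8.09 (SE 0.83), against 4.82 for CLU.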

How the data were processed

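RNA of 6 THP1 libraries was examined. Read counts of each gene, as the authors deposited them, are whole numbers that were not scaled, from TruSeq RNA v2 libraries. The submitters' processing notes name bcl2fastq 2.19, Trimmomatic, Bowtie2, Picard, featureCounts, DESeq2 and hg38, and settings for strand or multiply mapped reads are not given in the sources used here. The 6 scaled columns and the authors' own comparison (fold changes, p-values) were not used. The genes and lists were chosen with earlier results of these data known. Counts were fitted with edgeR 4.0.16 in R 4.3.3 (TMM, filterByExpr with a minimum count of 10, quasi-likelihood test, two-sided, Benjamini-Hochberg over 12854 genes), checked on simulated data. Standard errors follow from the fold change and its F statistic. Precision is set by 11006035 to 13872810 counts per library, and a floor of 3 counts covers counting error only. Lengths and overlaps came from GENCODE 29 (GRCh38) and promoters from RefSeq. Protein sequences were not analysed here.

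In lists with under 10 tested genes every tested gene was to be named, otherwise the 4 with the smallest p-value and up to 2 past the threshold in the opposite direction. Of the genes this rule names, 1 is not reported here. For the 3 largest fitted changes the 3 most similar genes were named. Alternatives were a replicate block, DESeq2 1.42.0 (Wald test), other scalings, no filter and leaving out each library. The sample labels give same-numbered DMSO and WFA libraries the same code, and their deviations from the group means correlated at 0.217, 0.333 and 0.245, against -0.256 to 0.00369 for other pairs. Libraries of a group differed by more than sampling noise (chi-square per gene 5.92 to 10.9), so none was a duplicate.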

Additional observations from a re-analysis of the deposited data

How the results depend on the processing

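With 3 libraries a group, small changes are poorly resolved. In the fits with total counts in place of TMM, which shift the median of all genes from 0.02 to -0.06, the log2 fold change of BAG5 was -0.33, 4 HSF1 modifiers were lower in place of 2 and 2 higher in place of 3, as GSK3B no longer passed. The median of that list went from 0.03 to -0.055, moving with that of all genes. With each library left out it lay between -0.0013 (without WFA replicate 1) and 0.067. The genes with every WFA library below every DMSO library were BAG4, BAG5 and HSF2 with total counts, 3 in place of 1. With each library left out that number lay between 1 and 3, with BAG4 and HSF2 added without DMSO replicate 2, HSF1 without DMSO replicate 3 and BAG4 without WFA replicate 1. The log2 fold change of BAG5 then lay between -0.31 and -0.19. BAG1 was higher in all remaining WFA libraries without WFA replicate 2. The median transcript length put BAG3 at rank 3 with WFA, and 1 mismatch in the 3-unit heat shock element gave 1 gene in place of 0. The fit with the replicate block gave -0.25 for BAG5 and changed no call of a listed gene other than HSF4 and AKT1. The cause of these shifts was not tested. BAG3, CLU, HSPB1 and BAG2 stayed at 4.20 to 4.41, 4.67 to 5.03, 2.63 to 2.98 and 1.10 to 1.37 under all 11 alternatives. The DESeq2 test, the block, the other size factors and the fit without a filter give no separate value for the bound of CRYAB or for overlap between groups.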

Other observations

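BAG6 stands in a stretch of the table with few counts. It lies at chr6:31639028-31652661 (RefSeq, GRCh38.p14) and is listed at 0 in every library. Of the 154 protein-coding genes of the table that RefSeq places in the 4500000 bases from position 29000000 of chromosome 6, a window chosen after the data were seen, 128 (83.1%) had at most 3 counts in each library. This was 26.0% of 742 genes on the rest of chromosome 6 and 29.6% of all 17774 genes outside the window. DAXX, an HSF1 modifier at chr6:33318558-33322959, had 1 to 2 counts, and HSPA1A had 0 to 2, whereas HSPA1B had 13 to 600. The cause was not tested, and the values for BAG6, DAXX and HSPA1A are therefore not read as their expression. HSPA1B, at chr6:31827738-31830254, lies in the same window, so its level and the size of its rise are uncertain too. It remains among the 24 HSF target genes called higher.

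The controls differed from each other in the HSF target genes. DMSO replicate 1 was the highest control for 21 of the 24 genes and DMSO replicate 3 the lowest for 19, against 32.1% and 36.5% of all tested genes. The median log2 difference of DMSO replicate 3 from DMSO replicate 1 was -0.32 on this list and -0.003 over all tested genes. HSPB1 and BAG2 had the same order, at 127 and 71.6 CPM and at 38.6 and 26.7 CPM in DMSO replicates 1 and 3, while BAG3 had 17.7 CPM in both. The genes were counted after this order was noticed, and it was not tested.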
